A study of Mus musculus with 2 samples.

Results

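Cdkn1c, H19, Igf2, Dlk1, Meg3, Grb10, Mest, Peg3, Plagl1 and Ndn are 10 imprinted genes that act on growth, and they were chosen by name from the 32285 genes counted in single cells of the mouse fetal liver. The libraries were made from LSK cells (lineage-negative, Sca1+ and cKit+, the fraction that holds the blood stem and progenitor cells) of CD1 embryos at day E14.5. One library came from 2 pooled IκBα wild-type (WT) embryos and the other from 3 pooled embryos in which IκBα was knocked out (KO), so each genotype had 1 library and the embryos within a pool were not told apart. The sample titles name LT-HSC, whereas the cell type label and the sort name LSK, and the libraries are described here as LSK. IκBα, encoded by Nfkbia, is an inhibitor of NF-κB.

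An imprinted gene is read mainly from the copy inherited from 1 parent, under marks set in the germ line. Paternally expressed members such as Igf2, Dlk1, Mest, Peg3, Plagl1 and Ndn and maternally expressed members such as H19, Meg3, Cdkn1c and Grb10 are known as a group that is high in fetal tissues and falls after birth, and several of them are known from long-term haematopoietic stem cells. The counts used here are of transcript ends, which do not tell the parental copies apart, so every value below is a sum over both.

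WT held 3840 barcodes and KO 4928, of which 3458 and 4417 were kept for having 1000 or more genes with a UMI (unique molecular identifier, 1 per captured transcript) and no more than 20% of their UMIs from mitochondria. The median kept cell held 28065 UMIs in WT and 19560 in KO, a 1.43-fold gap in depth. Only 7 Nfkbia UMIs were counted in KO against 1484 in WT. The libraries shared 6 kept barcodes. Y-linked UMIs without Xist marked 0.116% of WT and 17.4% of KO cells, so the pools also differed in sex. Proportions and levels below carry exact 95% intervals that cover counting error only, and since 1 library stood for each genotype no difference between them could be tested against embryos.

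Cells were put into classes by summed marker transcripts, none of them a member. HSC were defined by Hlf, Mecom, Procr, Fgd5 and Mllt3, endothelial cells by Stab2, Lyve1, Kdr, Oit3, Gpr182 and Cdh5, and hepatocytes by Alb, Afp, Ttr, Apoa2 and Rbp4. A cell that passed 1 gate alone took that class, and 8 classes had at least 20 cells in each library. HSC numbered 542 in WT and 538 in KO, with a median of 16383 and 11701 UMIs, and 355 WT and 447 KO cells of all kept cells lay within 25% of the HSC cut. Endothelial cells numbered 34 and 52, hepatocytes 23 and 44, erythroid cells 1561 and 2098, neutrophil-primed cells 193 and 228, lymphoid-primed cells 76 and 98, monocyte-dendritic cells 32 and 48, and megakaryocytes 23 and 61. All markers of the HSC, endothelial and hepatocyte gates had UMIs in their class in both libraries. Hepatocytes and endothelial cells are not blood cells, and the sort was not meant to keep them. A further 379 WT and 626 KO cells passed more than 1 gate and were left out as mixed.

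The members lie on 5 chromosomes of the GRCm38 genome (mm10, the build of the counts). H19, a long non-coding RNA (chr7:142575529-142578143, minus strand), and Igf2, the insulin-like growth factor II ligand (chr7:142650766-142666816, minus strand), are neighbours 72.6 kb apart. Cdkn1c (chr7:143458339-143461050, minus strand) follows 792 kb beyond Igf2. Ndn (chr7:62346569-62350262, plus strand) and Peg3 (chr7:6703892-6730431, minus strand) are on the same chromosome. Dlk1 (chr12:109452823-109463336, plus strand) and the non-coding Meg3 (chr12:109541001-109571726, plus strand) are 77.7 kb apart. Grb10 lies at chr11:11930508-12038683 (minus strand), Mest at chr6:30723547-30748465 (plus strand) and Plagl1 at chr10:13060504-13131694 (plus strand). On the opposite strand, Cdkn1c overlaps Gm44732, Igf2 overlaps Igf2os, Mest overlaps Copg2 and Ndn overlaps Gm32061, which are counted as genes of their own.

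Promoters, 250 bases before to 50 after an annotated start, were matched in RefSeq for 8 of the 10 members, with 15 starts in all. The 4 promoters shown belong to members with contrasting patterns among the classes, Mest and Ndn with their highest level in endothelial cells and the neighbours Dlk1 and Meg3 with theirs in hepatocytes. Capitals mark TGCCGC on either strand (GCGGCA where it lies on the other), the letters that the zinc-finger protein ZFP57 is known to bind at methylated control regions of imprinted genes. It was found in 6 of the 15 member promoters and in 11.6% of all 32851 promoters of the same length. The windows are from GRCm38.p6, written 5′ to 3′ on the gene's strand, at chr6:30737800-30738099 (plus) for Mest, chr7:62348027-62348326 (plus) for Ndn, chr12:109452573-109452872 (plus) for Dlk1 and chr12:109540746-109541045 (plus) for Meg3.
Mest: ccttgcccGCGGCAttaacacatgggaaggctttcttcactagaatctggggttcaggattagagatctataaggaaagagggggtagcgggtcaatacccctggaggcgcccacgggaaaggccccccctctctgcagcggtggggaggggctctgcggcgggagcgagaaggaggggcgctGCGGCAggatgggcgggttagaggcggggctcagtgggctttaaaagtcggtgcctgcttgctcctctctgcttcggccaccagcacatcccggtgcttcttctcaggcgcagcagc
Ndn: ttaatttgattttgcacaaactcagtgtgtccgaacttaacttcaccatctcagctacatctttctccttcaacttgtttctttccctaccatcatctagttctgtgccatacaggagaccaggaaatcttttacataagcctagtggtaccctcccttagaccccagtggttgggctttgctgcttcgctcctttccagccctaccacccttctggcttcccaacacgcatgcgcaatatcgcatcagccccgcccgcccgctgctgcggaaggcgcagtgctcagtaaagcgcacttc
Dlk1: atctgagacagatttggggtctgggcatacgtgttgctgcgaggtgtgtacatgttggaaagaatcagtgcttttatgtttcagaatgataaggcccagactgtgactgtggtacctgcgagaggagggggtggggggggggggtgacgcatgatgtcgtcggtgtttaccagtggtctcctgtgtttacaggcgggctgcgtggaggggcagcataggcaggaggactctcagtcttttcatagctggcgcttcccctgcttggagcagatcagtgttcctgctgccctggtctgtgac
Meg3: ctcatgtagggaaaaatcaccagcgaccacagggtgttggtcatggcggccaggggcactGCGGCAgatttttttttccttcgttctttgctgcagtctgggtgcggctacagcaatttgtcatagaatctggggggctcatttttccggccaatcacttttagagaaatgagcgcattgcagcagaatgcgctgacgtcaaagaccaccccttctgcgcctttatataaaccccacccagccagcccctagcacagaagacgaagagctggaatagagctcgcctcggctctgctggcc
The Mest window holds 17 CpG pairs and 2 copies of the motif, the Meg3 window 13 CpG pairs and 1 copy, the Ndn window 11 CpG pairs and no copy, and the Dlk1 window 9 CpG pairs and no copy. The median over all promoters is 7 CpG pairs. A match of these letters describes the sequence only.

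The level of each member in a class was its UMIs summed over the class and scaled to the class's total UMIs, given as CPM. For each of the 10 members the class with the highest level was the same in WT and KO. Hepatocytes held the highest level of Cdkn1c, H19, Igf2, Dlk1, Meg3, Grb10 and Peg3, and endothelial cells the highest level of Mest, Plagl1 and Ndn. Among the blood cell classes, HSC held the highest level of Cdkn1c, H19, Igf2, Dlk1, Meg3, Peg3 and Ndn in both libraries. For Peg3 and Ndn in WT, the HSC interval overlapped that of megakaryocytes, the next blood cell class, at 7.63 and 25.8 CPM. For H19 in KO it overlapped that of lymphoid-primed cells.

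**Figure D1:**
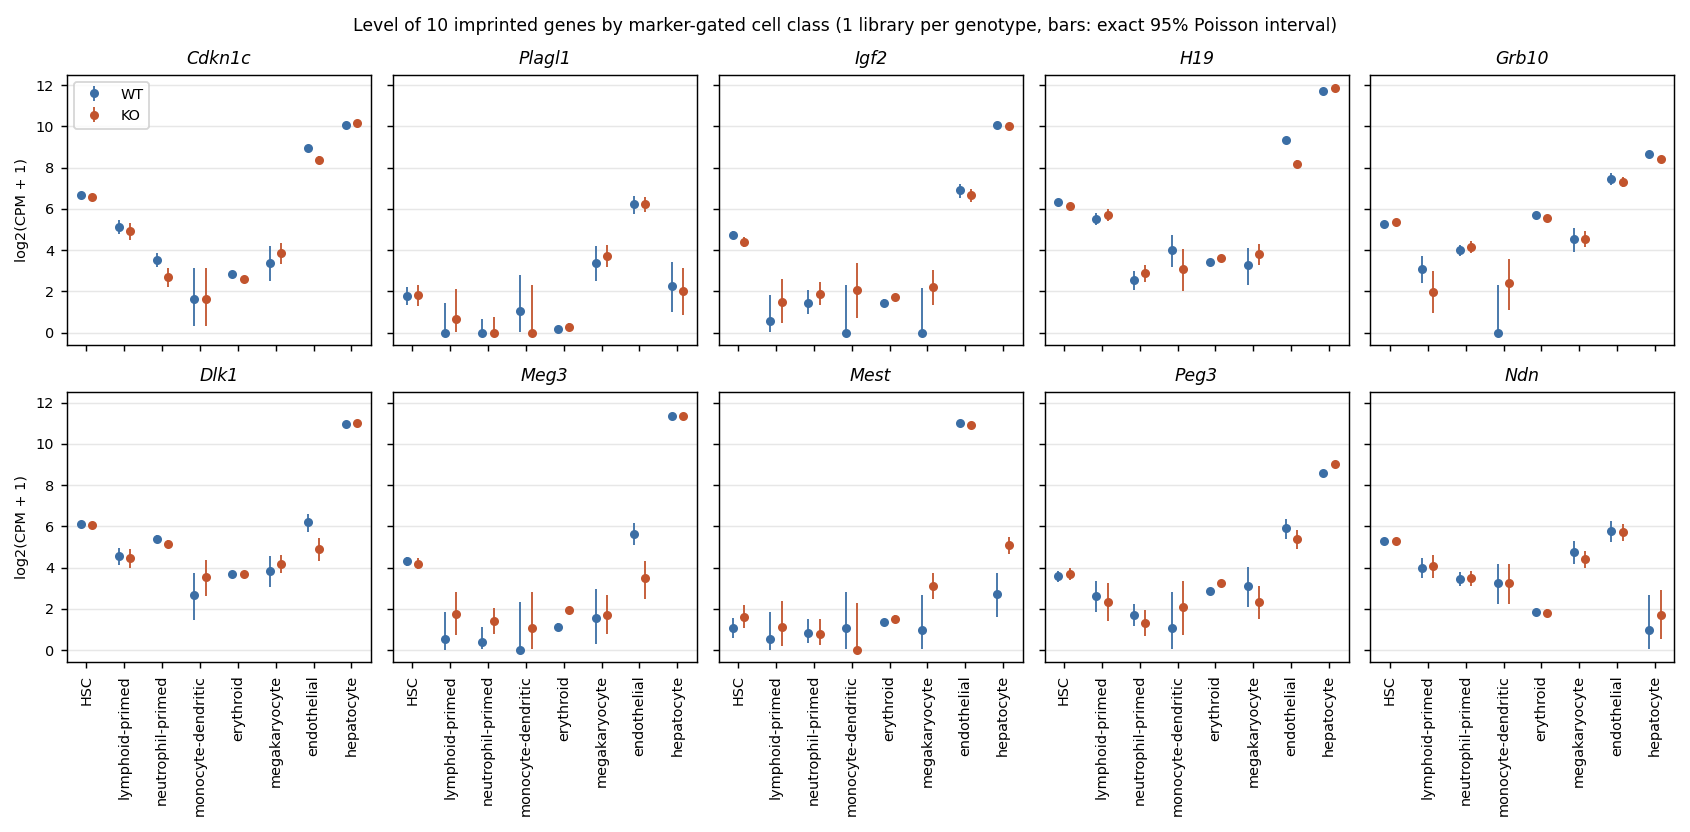
Level of each member, as log2(CPM + 1) on the vertical axis, in the 8 cell classes on the horizontal axis, WT in blue and KO in orange, with exact 95% Poisson intervals of the counts. Cdkn1c, H19, Igf2, Dlk1, Meg3, Grb10 and Peg3 are highest in hepatocytes, and Mest, Plagl1 and Ndn in endothelial cells.

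Cdkn1c encodes p57, an inhibitor of cyclin-dependent kinases that is known for holding stem cells out of the cell cycle. In HSC it stood at 102 CPM in WT (95.7 to 109; 953 UMIs) and 94.5 CPM in KO (87.3 to 102; 638 UMIs). Of the HSC, 74.0% in WT and 59.7% in KO held a Cdkn1c UMI, and 43.2% and 35.0% did so once each cell was thinned to 5000 UMIs. For comparison, 17.1% of the neutrophil-primed cells in WT and 9.65% in KO held one, at a median depth of 31307 and 22918.5 UMIs, and 4.71% and 2.68% after thinning. The lymphoid-primed class held 34.3 and 29.4 CPM, and the erythroid class 6.11 and 5.13 CPM. HSC thus stood 16.7-fold (14.8 to 18.9) above erythroid cells in WT and 18.4-fold (15.99 to 21.3) in KO. Outside the blood lineages, Cdkn1c reached 494 CPM in WT and 332 CPM in KO endothelial cells, and 1082 and 1157 CPM in hepatocytes. The order hepatocyte, endothelial, HSC, lymphoid-primed held in both libraries with no overlap of neighbouring intervals, and among the megakaryocyte, neutrophil-primed, erythroid and monocyte-dendritic levels below them most neighbours overlapped.

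Plagl1 encodes a zinc-finger transcription factor known to act on other imprinted genes. It was highest in endothelial cells, at 73.7 CPM in WT (53.7 to 98.6) and 73.2 CPM in KO (56.5 to 93.3), where 79.4% and 61.5% of the cells held a UMI. Megakaryocytes came next with 9.54 CPM (10 UMIs) and 12.2 CPM (27 UMIs), which was 3.87-fold (1.65 to 8.46) and 4.85-fold (2.55 to 9.48) above HSC. In HSC, at 2.46 CPM (23 UMIs) and 2.52 CPM (17 UMIs), 3.69% and 2.97% of the cells held it. Neutrophil-primed cells held none, and at the limit of 3 counts 0 of 193 WT and 0 of 228 KO cells allows a share of cells with a Plagl1 UMI of up to 1.55% and 1.32%.

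Igf2 and H19 had the same 3 leading classes. Igf2 stood at 1071 CPM in WT (1009 to 1135) and 1037 CPM in KO (983 to 1093) hepatocytes, at 118 and 100.2 CPM in endothelial cells and at 25.8 CPM (22.6 to 29.3) and 20.3 CPM (17.0 to 24.0) in HSC. Every hepatocyte held an Igf2 UMI, against 26.0% of WT and 18.6% of KO HSC, or 10.2% and 11.3% after thinning. In the other blood cell classes Igf2 was at or below 3.62 CPM. Its drop from HSC to lymphoid-primed cells was 55.7-fold in WT (9.90 to 2208) and 11.5-fold in KO (3.86 to 56.6), with only 1 and 3 UMIs in the latter class. H19 had the same order at the top, with 3334 and 3755 CPM in hepatocytes, 643 and 290.4 CPM in endothelial cells and 80.7 and 68.3 CPM in HSC. Unlike Igf2, H19 was retained in lymphoid-primed cells at 44.0 CPM (35.6 to 53.8) in the WT and 51.1 CPM (40.9 to 63.0) in the KO library. HSC thus stood 1.83-fold (1.48 to 2.29) and 1.34-fold (1.06 to 1.70) above them. After thinning, 28.0% of WT and 10.4% of KO lymphoid-primed cells held an H19 UMI, against 31.1% and 29.4% of HSC. A single KO lymphoid-primed cell held 17 of the 87 H19 UMIs of its class.

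Grb10 encodes an adaptor that restrains insulin and insulin-like growth factor receptors. Among the blood cell classes its level was highest in erythroid cells. Erythroid cells held 50.6 CPM in WT (48.8 to 52.4) and 46.8 CPM in KO (45.0 to 48.7), and HSC 37.7 CPM (33.9 to 41.8) and 40.1 CPM (35.5 to 45.2). The erythroid level was 1.34-fold (1.20 to 1.502) that of HSC in WT and 1.17-fold (1.03 to 1.33) in KO, and in KO the Poisson intervals of these classes just overlapped. Lymphoid-primed cells, in contrast, held 7.41 CPM (16 UMIs) and 2.94 CPM (5 UMIs). Endothelial cells stood at 173 and 155 CPM and hepatocytes at 408 and 340 CPM.

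Dlk1 encodes a transmembrane protein of the Notch ligand family and a marker of fetal hepatoblasts, and its neighbour Meg3 a nuclear non-coding RNA. Hepatocytes held 1960 CPM of Dlk1 in WT (1876 to 2046) and 2066 CPM in KO (1990 to 2145), and 2638 CPM (2541 to 2738) and 2641 CPM (2554 to 2730) of Meg3. Below the hepatocytes the pair differed. Dlk1 stood at 68.8 and 65.3 CPM in HSC and stayed at 40.8 CPM (35.9 to 46.1) and 34.2 CPM (29.5 to 39.4) in neutrophil-primed cells, 1.69-fold (1.46 to 1.96) and 1.91-fold (1.61 to 2.28) below HSC. Meg3 stood at 18.7 CPM (16.1 to 21.7) and 17.3 CPM (14.3 to 20.8) in HSC and at 0.318 CPM (2 UMIs) and 1.63 CPM (9 UMIs) in neutrophil-primed cells. Only 16.2% of WT and 13.4% of KO HSC held a Meg3 UMI, against 48.5% and 43.7% for Dlk1. After thinning it was 7.55% and 6.61% for Meg3 and 26.0% and 25.3% for Dlk1, and in erythroid cells, at a median depth of 35934 and 23880 UMIs, 0.648% and 1.15% for Meg3. A single KO hepatocyte reached 43791 CPM of Meg3, against 2667 CPM in the median KO hepatocyte. No KO hepatocyte held more than 210 Meg3 UMIs, so that cell was shallow beside the class median of 27363 UMIs.

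Mest encodes a protein of the hydrolase fold family and is known from mesoderm and its derivatives. Every endothelial cell held Mest, 34 of 34 in WT and 52 of 52 in KO, at 2074 CPM (1961 to 2191) and 1951 CPM (1860 to 2045). In HSC it stood at 1.07 CPM (10 UMIs in 9 cells) and 2.07 CPM (14 UMIs in 14 cells), so the endothelial level was 1937-fold (1050 to 4049) and 940-fold (559 to 1724) higher. Among erythroid cells, hepatocytes and megakaryocytes, the cells with 5 or more Mest UMIs also carried endothelial markers. There were 2 such erythroid cells in each library, 1 WT and 4 KO hepatocytes and 2 KO megakaryocytes, and every one of these held UMIs of the endothelial gate genes.

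Peg3, a zinc-finger protein, followed the hepatocyte order with 378 CPM (342 to 417) in the WT and 515 CPM (477 to 555) in the KO library, against 58.9 and 40.5 CPM in endothelial cells and 11.03 and 11.9 CPM in HSC. It was retained in erythroid cells at 6.396 and 8.56 CPM. Ndn, which encodes necdin, a protein known to restrain proliferation and to keep stem cells quiescent, was nearly lacking in hepatocytes, with 1 UMI in WT and 3 UMIs in KO. Endothelial cells held 54.0 CPM (37.2 to 75.9) and 51.8 CPM (37.9 to 69.1) of Ndn and HSC 38.3 CPM (34.5 to 42.5) and 37.9 CPM (33.4 to 42.9). These neighbouring levels did not differ beyond their intervals, and 46.1% of WT and 33.5% of KO HSC held an Ndn UMI, or 18.7% and 17.7% after thinning. Erythroid cells held 2.59 and 2.52 CPM, 14.8-fold (12.2 to 18.0) and 15.1-fold (12.2 to 18.7) below HSC.

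Counted over the members, 7 of 10 stood at least 4-fold higher in HSC than in erythroid cells in both libraries (Cdkn1c, H19, Igf2, Dlk1, Meg3, Plagl1 and Ndn), against 14.8% of all genes with at least 20 UMIs in both classes together in each library. Against neutrophil-primed cells it was 5 of 8 with enough UMIs (Cdkn1c, H19, Igf2, Meg3 and Peg3), against 3.65% of all genes, and against lymphoid-primed cells 3 of 8 (Igf2, Meg3 and Grb10), against 1.6% of all genes. No member stood at least 1.5-fold higher in the erythroid, neutrophil-primed or lymphoid-primed class than in HSC in both libraries, against 11.3%, 6.06% and 4.15% of all genes. Hepatocytes stood at least 4-fold above HSC for 7 of 9 members, against 7.51% of all genes, and HSC above hepatocytes for Ndn alone, against 8.76%. Endothelial cells stood at least 4-fold above HSC for H19, Igf2, Mest and Plagl1, 4 of 10 against 5.07% of all genes, and above hepatocytes for Mest, Plagl1 and Ndn, 3 of 10 against 7.49%. The members were picked with earlier results of these cells known, so these counts describe them and support nothing beyond that.

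Many of a library's Meg3, Dlk1 and Mest UMIs came from few cells. The hepatocytes gave 0.976% of all UMIs in WT and 1.34% in KO, but 69.9% and 64.1% of the Meg3 UMIs and 36.1% and 42.7% of the Dlk1 UMIs. Endothelial cells gave 0.564% and 0.897% of all UMIs and 48.9% and 58.6% of those of Mest. HSC gave 8.62% and 6.81% of all UMIs, 20.7% and 13.8% of those of Cdkn1c and 30.4% and 25.5% of those of Ndn. Erythroid cells gave 54.1% and 54.9% of all UMIs and 60.9% and 55.5% of those of Grb10.

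**Figure D2:**
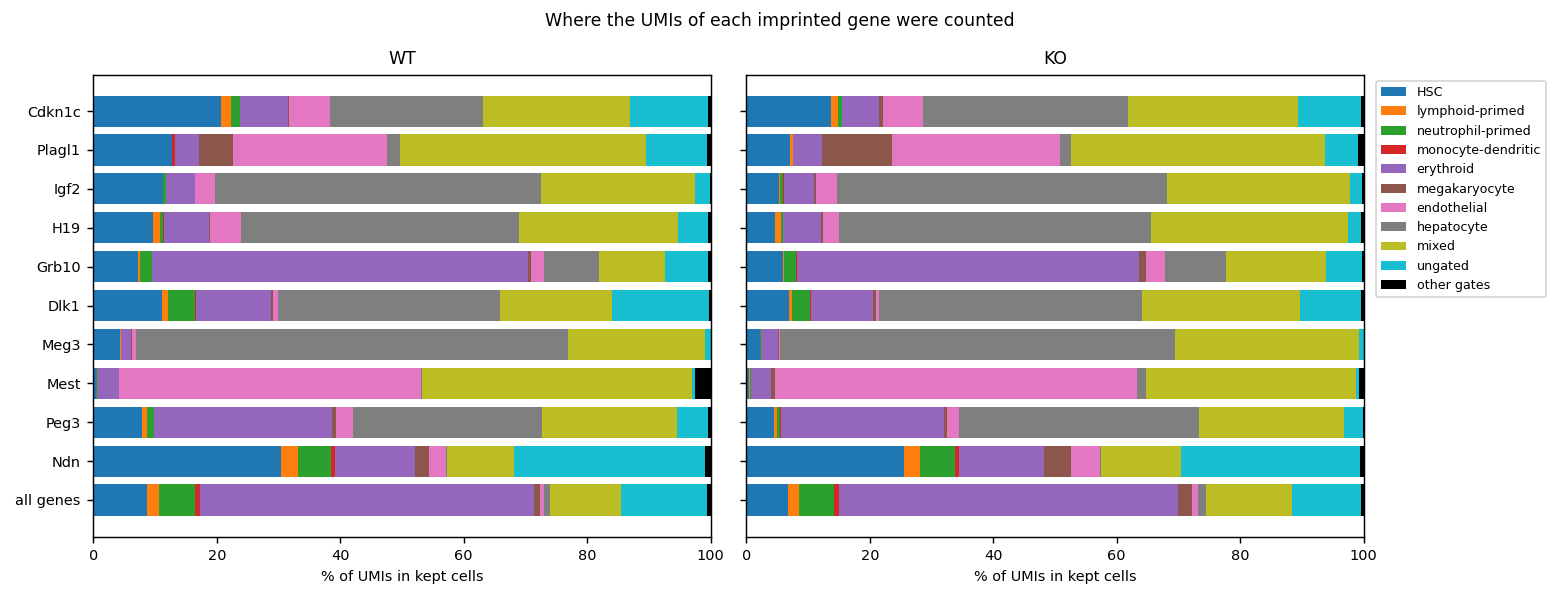
Share of each member's UMIs, in percent of its UMIs in kept cells on the horizontal axis, that was counted in each class, WT left and KO right, with all genes in the bottom bar and mixed and ungated cells as classes of their own. The erythroid share of Grb10 is near that of all genes (60.9% against 54.1% in WT) while its hepatocyte share is above it (8.86% against 0.976%), Meg3 is mostly hepatocyte (69.9% in WT) and Mest mostly endothelial and mixed (48.9% and 43.7% in WT).

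Hepatocytes held up to 3755 CPM of a member, so the amount of hepatocyte RNA in the other classes was measured with 10 secreted-protein genes of hepatocytes that were no gate genes (Apoa1, Apoh, Fgb, Fga, Fgg, Serpina1b, Ahsg, Vtn, Apob and Serpinc1). Their sum in hepatocytes was 20966 CPM for WT and 20094 for KO, and 13.3 and 22.4 CPM in HSC. Within a library, 1 source keeps its genes in 1 ratio, so the reference UMIs in HSC and the ratio in hepatocytes gave the member UMIs that such a background would hold. For Cdkn1c this was 6.3997 UMIs in WT against 953 observed, and 8.70 in KO against 638. H19 had 19.7 UMIs against 754 and 28.2 against 461, and Meg3, the nearest to the background, had 15.6 against 175 and 19.8 against 117. For Meg3, observed over expected was thus 11.2 (9.62 to 13.01) in WT and 5.90 (4.88 to 7.07) in KO, and 38.1 (33.4 to 43.2) and 17.6 (14.8 to 20.8) for Igf2. The 7 members highest in hepatocytes stood over 3 times this background in HSC of both libraries, as did 97.7% of all genes. For Mest, Plagl1 and Ndn under 1 UMI was expected in each library, so that passing the limit says nothing of them.

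**Figure D3:**
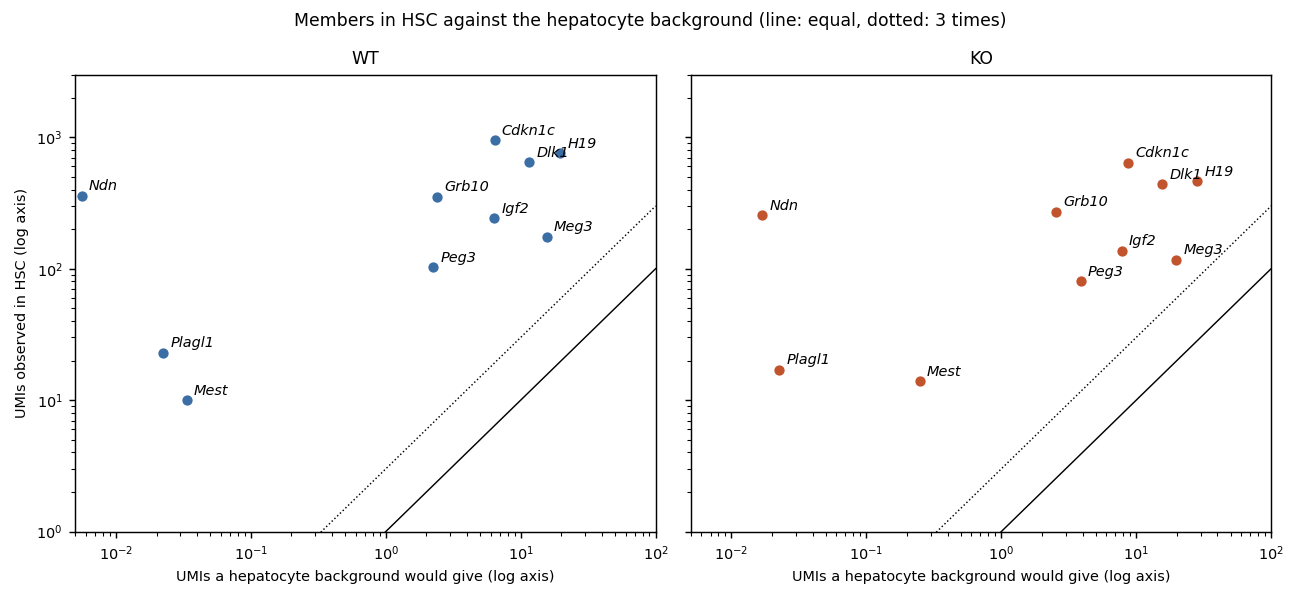
UMIs observed in HSC on the vertical axis against the UMIs a hepatocyte background would give on the horizontal axis, both log axes, 1 point per member, WT left and KO right. All points lie above the dotted line of 3 times the background, Meg3 nearest to it, and Mest, Plagl1 and Ndn stand at under 1 expected UMI.

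In the more mature classes the low values of Meg3 were within reach of that background. Erythroid cells held 68 Meg3 UMIs in WT against 100.3 expected (0.678 of it, 0.527 to 0.860) and 152 in KO against 123 expected (1.24 of it, 1.05 to 1.45). Erythroid Igf2 was above the background, at 99 UMIs against 40.7 in WT, 2.43 times (1.98 to 2.96). In KO it was at 124 against 48.2, 2.57 times (2.14 to 3.07). Erythroid H19 was further above it, at 574 UMIs against 127 in WT, 4.53 times (4.17 to 4.91). In KO it was at 606 against 175, 3.47 times (3.20 to 3.76). Neutrophil-primed cells held 2 Meg3 UMIs against 6.29 expected in WT and 9 against 11.2 in KO. Grb10 and Dlk1 stood well above it in the same cells, with 2964 erythroid Grb10 UMIs against 15.5 expected in WT and 256 neutrophil-primed Dlk1 UMIs against 4.67.

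Along the stem cell markers the members split. Cells that passed no gate other than HSC were ordered by their summed HSC markers per 10000 UMIs in 6 bins, from below 0.5 to 8 or more. The HSC cut was 2 per 10000, so cells below it, as in the lowest bin, passed no gate and were not classed as HSC. The end bins thus set cells of no gate against the HSC highest in these markers. Cdkn1c stood at 23.3, 40.2, 58.7, 79.1, 114 and 159 CPM from the lowest to the highest bin in WT and at 27.0, 50.9, 66.6, 79.5, 98.3 and 164 CPM in KO, higher in each bin than in the one before it. Igf2 stood at 1.05 CPM in the lowest and 66.6 CPM in the highest WT bin, 63.1-fold apart (29.3 to 162), and at 2.86 and 49.0 CPM in KO, 17.1-fold apart (9.24 to 33.2). Meg3 differed 34.4-fold (19.04 to 67.4) in WT and 13.1-fold (7.05 to 24.9) in KO, and H19 8.80-fold (7.12 to 10.9) and 8.53-fold (6.34 to 11.5). Dlk1 did not follow. It stood at 45.5 CPM in the lowest and 45.8 CPM in the highest WT bin, a ratio of 1.006 (0.741 to 1.34), and at 51.8 CPM in both KO bins, a ratio of 1.00 (0.690 to 1.41), while its middle bins reached 74.6 and 73.5 CPM. The end bins differed at least 4-fold in both libraries for 4 of 8 members with enough UMIs (Cdkn1c, H19, Igf2 and Meg3), against 2.05% of all genes. They differed at least 1.5-fold in both for 7 of 8, which added Grb10, Peg3 and Ndn, against 25.9%. The KO ratio of Ndn was 1.53, and its interval (0.965 to 2.34) included no difference. Depth moved along the bins too, from a median of 26094.5 UMIs per cell in the lowest to 11329 in the highest WT bin, and from 19209 to 8244 in KO, and the hepatocyte reference from 0.0843 to 0.1997 UMIs per 10000 in WT and from 0.188 to 0.238 in KO. The part of either in these gradients was not tested.

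**Figure D4:**
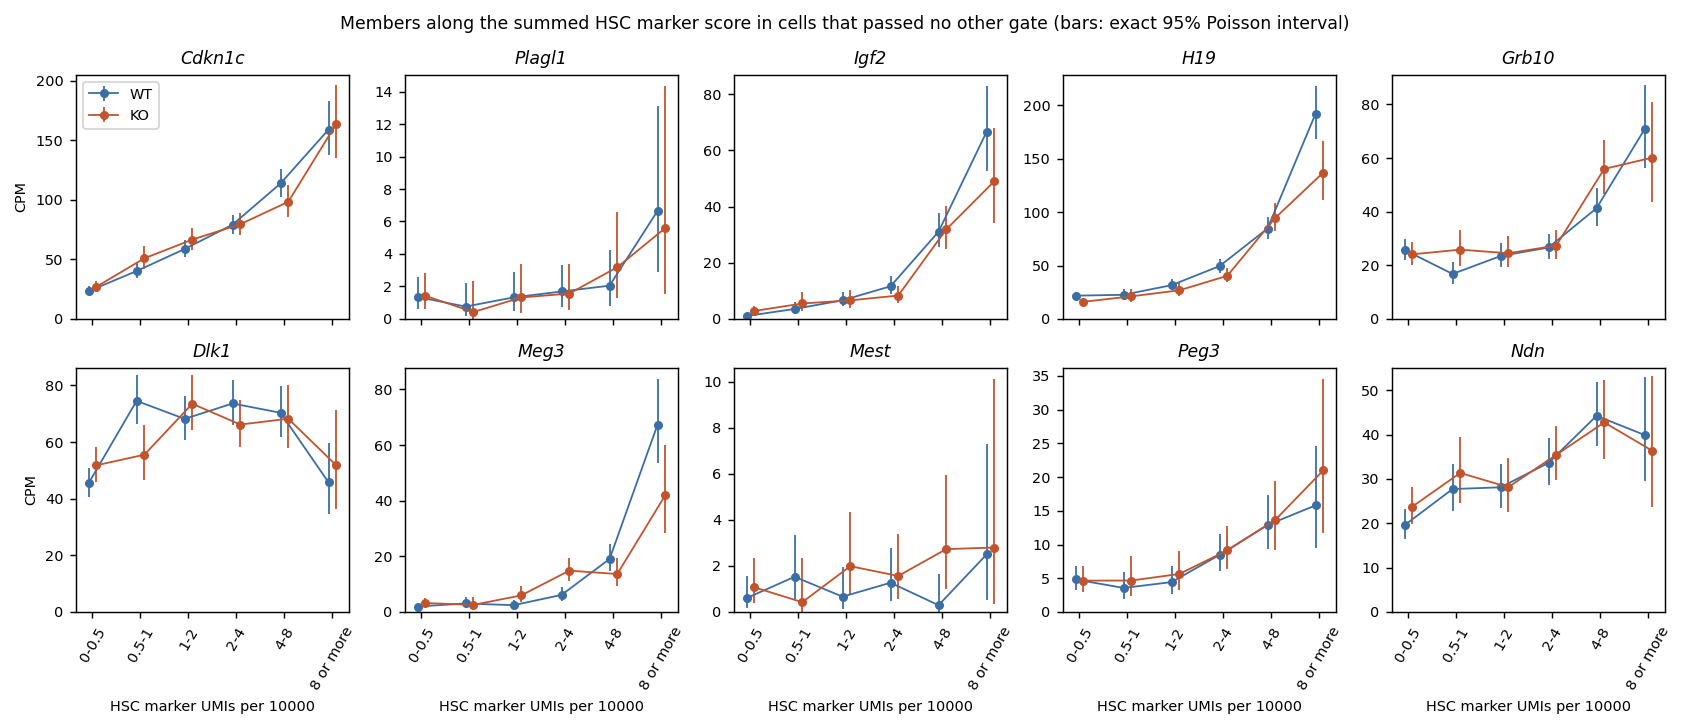
CPM of each member on the vertical axis in 6 bins of the summed HSC markers per 10000 UMIs on the horizontal axis, in cells that passed no other gate, WT in blue and KO in orange, with exact 95% Poisson intervals. Cells below the HSC cut of 2 per 10000 passed no gate. Cdkn1c, H19, Igf2 and Meg3 climb to the highest bin (159, 192, 66.6 and 67.4 CPM in WT), whereas Dlk1 ends at 45.8 CPM.

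HSC without proliferation transcripts held more of the same members. After thinning to 5000 UMIs, 105 WT and 58 KO HSC held no UMI of Mki67, Top2a, Cdk1, Ccnb1, Ccna2, Birc5, Cenpf, Hmmr, Tpx2 and Ube2c, and 425 and 456 held at least 1. Cdkn1c stood at 138 CPM in WT HSC without and 96.7 CPM in those with such UMIs, a log2 difference of 0.52 (0.27 to 0.75), and at 134 and 90.4 CPM in KO, 0.57 (0.18 to 0.95). Igf2 stood at 59.7 against 20.2 CPM in WT, 2.96-fold, and 37.2 against 19.1 CPM in KO, 1.95-fold. H19 was 1.53-fold and 1.66-fold higher without them and Meg3 1.99-fold and 1.82-fold, though the KO interval of Meg3 (log2 of -0.06 to 1.68) included 0. These members, H19, Igf2 and Meg3, made 3 of 8 that were at least 1.5-fold higher in both libraries, against 4.57% of all genes, and none was as much lower, against 4.95%. Ndn stood at 44.8 against 37.3 CPM in WT and 57.9 against 36.1 CPM in KO, and only its KO interval (log2 of 0.06 to 1.252) left out 0. Grb10 stood at 36.9 against 37.8 CPM in WT and 55.8 against 38.2 CPM in KO, with both intervals including 0. The cells without proliferation UMIs were also shallower (11534 against 17864 UMIs at the median in WT, and 8011 against 12547 in KO), and the part of depth was not tested.

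Within single HSC the median pair of members was detected together about as often as their separate shares give. The median HSC held UMIs of 3 members in each library, and after thinning of 2 members in WT and 1 member in KO. Of the 45 pairs, 35 had at least 5 cells expected with both by shares taken within 10 equal groups of depth, and the observed number was between 0.759 and 1.61 times the expected one, with a median of 1.07. In both libraries 4 pairs exceeded the expected number by over 25%, and no pair was under 0.8 times it. H19 and Igf2 met in 109 WT cells against 87.2 expected and in 68 KO cells against 47.7. Igf2 and Meg3 met in 34 against 24.4 and 18 against 14.0 cells, Igf2 and Peg3 in 27 against 20.3 and 18 against 12.8, and Meg3 and Peg3 in 19 against 11.8 and 15 against 9.56. The neighbours Dlk1 and Meg3 met in 43 against 40.5 and 35 against 31.5 cells. In cells thinned to 5000 UMIs, 23 pairs had at least 5 cells expected. Their observed number was between 0.402 and 2.11 times the expected one, with a median of 1.15. Cells of 1 library share their embryos, and such differences in sparse counts describe these cells only.

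In HSC the KO levels of 9 of the 10 members were within 1.5-fold of WT. Past 1.5-fold in either direction was 1 of 10, Mest, against 7.35% of all genes, with 10 UMIs in WT and 14 in KO and a log2 ratio of 0.95 whose interval (-0.32 to 2.29) included 0. The interval of the count ratio left out 0 for 2 of 10, against 12.7% of all genes. H19 was at a log2 ratio of -0.24 (-0.41 to -0.07) and Igf2 at -0.35 (-0.66 to -0.04), both lower in KO. Cdkn1c was at -0.11 (-0.26 to 0.04), Dlk1 at -0.08 (-0.25 to 0.10), Meg3 at -0.11 (-0.46 to 0.23), Grb10 at 0.09 (-0.14 to 0.32), Peg3 at 0.10 (-0.34 to 0.54) and Ndn at -0.02 (-0.25 to 0.22). Plagl1 was at 0.03 (-0.96 to 1.00) on 23 WT and 17 KO UMIs. With the main settings, the counting intervals of Cdkn1c, H19, Dlk1, Meg3, Grb10, Peg3 and Ndn lay within 1.5-fold of WT either way. Those of Igf2, Mest and Plagl1 reached past 1.5-fold, so the counts do not place these members within it. The H19 ratio was 0.02 when only cells past the doubled HSC cut were used, with 329 WT and 302 KO cells. Over the alternative settings the Meg3 log2 ratio in HSC ranged from -0.67 to 0.04, and its low end was past 1.5-fold.

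**Figure D5:**
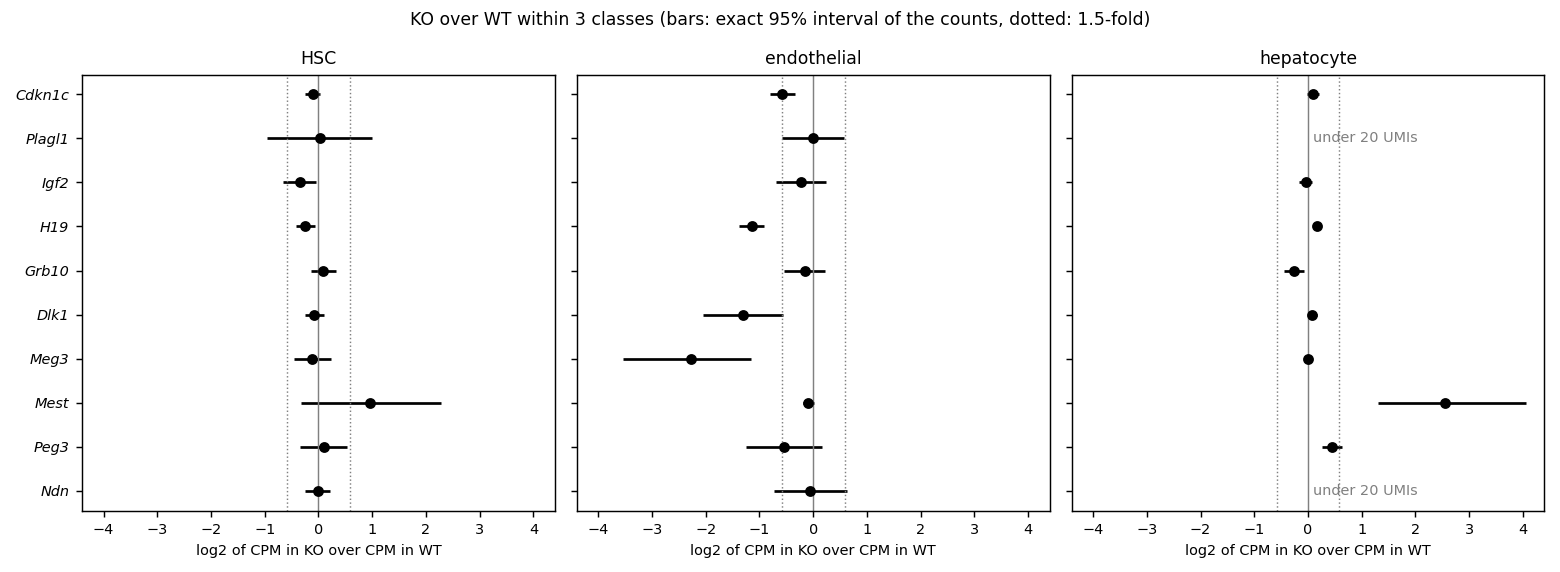
log2 of CPM in KO over CPM in WT on the horizontal axis for each member on the vertical axis, in HSC, endothelial cells and hepatocytes, with exact 95% intervals of the counts and dotted lines at 1.5-fold. In HSC the points lie near 0 except Mest (0.95), in endothelial cells all 10 lie below 0 with cells of several gates left out, and in hepatocytes Mest (2.54) stands apart.

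In endothelial cells all 10 members had a level in KO below that in WT with cells of several gates left out, whereas only H19 and Meg3 did when those cells were put into 1 class. By the first assignment 3 of 10 were past 1.5-fold lower, H19, Dlk1 and Meg3, against 7.59% of all genes (22.6% in either direction). The interval left out 0 for 4 of 10, against 14.4% of all genes, and the median log2 ratio was -0.39, beside 0.08 over all genes. H19 stood at 643 CPM in the WT and 290.4 CPM in the KO cells, a log2 ratio of -1.15 (-1.38 to -0.92), and at 534 and 210.5 CPM in the median cell. Dlk1 went from 72.0 to 29.3 CPM, -1.30 (-2.06 to -0.57), and Meg3 from 49.1 to 10.1 CPM on 30 and 9 UMIs, -2.28 (-3.54 to -1.17). Cdkn1c stood at 494 and 332 CPM, -0.57 (-0.81 to -0.34), whereas Mest was at -0.09 (-0.19 to 0.02). Other cells' transcripts differed as well between the 34 WT and 52 KO cells. The hepatocyte reference stood at 169 CPM in the WT and 48.4 CPM in the KO cells, the 5 hepatocyte gate markers at 504 and 219 CPM with all 5 present in each, and 3 WT and 2 KO cells had 10 or more of the latter per 10000 UMIs. Without those cells H19 was at -1.001, Dlk1 at -0.90 and Meg3 at -2.28. By the ratio used above, the hepatocyte background expected was 43.2% of the WT and 62.8% of the KO Meg3 UMIs. The 10 proliferation genes stood at 1730 CPM in the WT and 2815 CPM in the KO endothelial cells, and their part in the lower members was not tested. When cells that passed several gates were put into 1 class, 68 WT and 89 KO cells were endothelial, and H19 was at -0.39 and Meg3 at -0.71. Every other member was then above its WT level, with Cdkn1c at 0.0012, Dlk1 at 0.0105, Igf2 at 0.05, Grb10 at 0.06, Mest at 0.24 (0.16 to 0.33), Ndn at 0.40 (-0.14 to 0.96), Peg3 at 0.54 (0.03 to 1.05) and Plagl1 at 0.64 (0.24 to 1.05). This alternative was chosen after seeing the data, as was the one without the cells high in hepatocyte markers.

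Of the 8 members with at least 20 UMIs in hepatocytes of both libraries together, Mest alone was past 1.5-fold, against 16.5% of all genes, with 6 UMIs in 1 WT cell and 44 UMIs in 6 KO cells and a log2 ratio of 2.54 (1.31 to 4.06). As given above, the cells that held most of them also carried endothelial markers, and with the cuts doubled the ratio was -0.18. The counting intervals of H19 (0.17, 0.11 to 0.23), Peg3 (0.44, 0.26 to 0.63) and Grb10 (-0.26, -0.45 to -0.07) left out 0 as well, 4 of 8 with Mest against 8.57% of all genes. Meg3 (0.00, -0.07 to 0.07), Dlk1 (0.08, -0.01 to 0.16), Igf2 (-0.05, -0.16 to 0.07) and Cdkn1c (0.10, -0.01 to 0.21) did not. The share over all genes takes in genes of as few as 20 UMIs, whereas H19, Peg3 and Grb10 held 3525, 400 and 431 UMIs in WT hepatocytes. An interval narrows as counts grow, so that share is not a like background for them. Among the mature blood cells, 3 of 7 members were past 1.5-fold in neutrophil-primed cells, against 7.83% of all genes, and 1 of 9 in erythroid cells, against 6.63%. Cdkn1c was lower in KO neutrophil-primed cells (10.5 against 5.43 CPM, 66 and 30 UMIs, log2 of -0.95, -1.63 to -0.31). The other two past the fold, Igf2 (11 and 15 UMIs, 0.63, -0.59 to 1.90) and Peg3 (14 and 8 UMIs, -0.62, -2.08 to 0.73), had intervals that held 0. With cells of several gates put into 1 class, chosen after seeing the data, Cdkn1c stood at 9.89 CPM (8.01 to 12.1) in the 268 WT and 8.89 CPM (6.96 to 11.2) in the 291 KO cells, on 96 and 72 UMIs. Meg3 was higher in KO erythroid cells (1.16 against 2.79 CPM, log2 of 1.27, 0.85 to 1.70). With a minimum of 100 UMIs, 0 members in HSC, 1 in endothelial cells and 0 in hepatocytes were past 1.5-fold, against 1.62%, 9.93% and 3.18% of all genes. A single KO erythroid cell held 30 of the 152 Meg3 UMIs, and without the highest cell of each library the ratio was 0.995.

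The genes of the same families and pathways were counted in the same cells. Of 35 other imprinted genes 22 had at least 20 UMIs in HSC, of 17 genes of the insulin-like growth factor axis 9, and of 11 cyclins, cyclin-dependent kinases and inhibitors of the p57 family all 11. None was past 1.5-fold with an interval that left out 0 in HSC, and the median log2 ratios were -0.03, 0.02 and 0.06, beside 0.00 over all genes. In endothelial cells the genes past both limits were Kcnq1ot1 and Asb4 (higher in KO) and Peg10 and Dcn (lower) of 14 imprinted genes, Igf2bp3 (higher) and Igf2bp2 and Igfbp7 (lower) of 9 genes of the growth factor axis, and Cdk6 and Ccna2 (higher) of 10 cyclin and kinase genes. In hepatocytes it was Ccnd2 alone (higher) of 10 cyclin and kinase genes, with none of 20 imprinted and 10 axis genes. Of all genes in endothelial cells, 22.6% were past 1.5-fold and 14.4% had an interval that left out 0, and in hepatocytes 16.5% and 8.57%, so nothing is read from these counts. The genes were named after their values were seen.

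Over the 16 values of each gene (8 classes in 2 libraries), members were compared by the Pearson correlation of log2(CPM + 1), which is given as a description since the points share cells and depth. H19 and Cdkn1c were at 0.95, Meg3 was at 0.96 with Peg3 and at 0.95 with Dlk1, and Igf2 at 0.95 with Meg3. Mest and Plagl1 formed a pair at 0.88. Ndn against the 7 members highest in hepatocytes ranged from -0.33 with Dlk1 to 0.09 with Cdkn1c. Among the 11512 genes compared, with at least 200 UMIs, the pattern most like Cdkn1c was that of Rbfox2 (0.99), followed by Mageh1 and Dst (both 0.97). For Meg3 it was Rian (0.97), a non-coding RNA of the same imprinted cluster, then Phyhd1 and Cyb5a (both 0.97). Igf2 was most like Tmem37 (0.98), Tceal9 (0.96) and Nectin3 (0.95), and H19 like mt-Cytb, Dst (both 0.98) and Maged1 (0.97). Dlk1 was most like Hadh, Gpt2 (both 0.98) and Akr1c12 (0.98), and Grb10 like Rcor3 (0.96), Ndfip2 and Ppp1r37 (both 0.91).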

How the data were processed

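Fetal liver LSK cells were profiled with the 10x Genomics single cell 3′ v3 protocol, 1 library per genotype. The authors made the deposited UMI counts per gene and cell with Cell Ranger 6.0.0 on mm10, per the submitters' processing notes. Cells needed 1000 or more genes and no more than 20% mitochondrial UMIs. A class was given where marker UMIs per 10000 passed 1 cut alone, and the cuts were set on the distributions of these marker sums before any member was read. Counts were summed per class and library. CPM carried exact Poisson, shares Clopper-Pearson and ratios exact conditional 95% intervals. The ratios were run on simulated Poisson counts without variation between cells, embryos or libraries, so that run bears on counting error only. A single library per genotype allowed no test, and genes under 20 UMIs gave no ratio. Scrublet (scanpy 1.11.5) called 124 WT and 227 KO barcodes doublets (3.23% and 4.61%), and their removal was an alternative. All 10 members were named whatever their values, with the 3 genes most like each of 6 members. Genes of the other lists were to be named where past 1.5-fold with an interval leaving out 0 in HSC. Members and lists were chosen with earlier results of these data known. Positions are from GENCODE vM21, which held 32235 of the 32285 gene IDs. Python 3.11.15, numpy 2.4.6, scipy 1.17.1 and pandas 2.3.3 were used.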

Additional observations from a re-analysis of the deposited data

Results flagged for a closer look

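The KO over WT ratio of H19 went in opposite directions in different classes, with counting intervals that left out 0. Its log2 ratio was -0.24 in HSC and -1.15 in endothelial cells, and 0.19 in erythroid cells and 0.17 in hepatocytes. The H19 ratio was 0.024 in HSC with the cuts doubled and -0.076 in hepatocytes with the cuts halved. In endothelial cells it was -0.39 with mixed cells put in 1 class. For Igf2 the ratio was -0.35 in HSC and 0.43 in erythroid cells, where the expected hepatocyte background was 41.1% of the WT and 38.9% of the KO Igf2 UMIs. For Meg3 the ratio was 1.27 in erythroid cells and -2.28 in endothelial cells. Erythroid Meg3 stood at 0.678 times the expected hepatocyte background in WT and 1.24 times in KO, 1 KO erythroid cell held 30 of its 152 UMIs, and without the highest cell of each library the ratio was 0.995. In endothelial cells the expected background was 43.2% of the WT and 62.8% of the KO Meg3 UMIs. With 1 library per genotype, none of these differences between classes was tested.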

How the results depend on the processing

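No paired analysis was possible because either genotype came as a single library. Under the alternatives run for each, the count of members with the same highest class in both libraries (10), of those at least 4-fold higher in HSC than in erythroid cells (7) and of those over 3 times the hepatocyte background in HSC (10, of which Mest, Plagl1 and Ndn had under 1 UMI expected) stayed within 1.5 times. The number of endothelial members past 1.5-fold between genotypes was 3, and it was 5 without Scrublet calls, with median-of-ratios scaling or with the mean of the CPM per cell, 6 with gates on thinned cells, and 1 with the cuts halved or a minimum of 100 UMIs. In HSC it was 1, and 3 with the cuts doubled and 0 with a minimum of 100 UMIs. In hepatocytes it was 1, and 0 with the cuts doubled or a minimum of 100 UMIs and 2 with mixed cells put in 1 class. Pairs detected together by over 25% more than expected were 4, and 2 in thinned cells. Of the ratios of single members, H19 was at -0.076 in hepatocytes with the cuts halved and 0.024 in HSC with the cuts doubled. Mest in hepatocytes was at -0.18 with the cuts doubled and -1.04 with mixed cells put in 1 class, and Grb10 in hepatocytes at 0.15 with gates on thinned cells. With mixed cells put in 1 class, which was chosen after seeing the data, Cdkn1c was at 0.0012 and Dlk1 at 0.0105 in endothelial cells. The causes were not tested. Of the other values of single members, 319 kept within their interval and 35 moved. The split of HSC by proliferation transcripts could not be made in KO cells thinned to 10000 UMIs, since none lacked them. The 34 WT and 52 KO endothelial cells and 23 WT and 44 KO hepatocytes limit what could be seen there.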

Other observations

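When cells that passed several gates were put into 1 class, 2 WT and 3 KO cells fell into the stromal class, which none passed alone. Every one of them held Cdkn1c, at 5010 CPM (4345 to 5749) for the WT cells and 1858 CPM (1462 to 2330) for the KO cells, and Mest, at 1826 CPM (1434 to 2293) and 545 CPM (342 to 825). The macrophage class then held 43 WT and 98 KO cells, with Cdkn1c at 29.8 CPM (21.9 to 39.5) and 27.5 CPM (20.9 to 35.3) and H19 at 39.1 CPM (30.0 to 49.99) and 35.2 CPM (27.8 to 44.0). These cells were grouped after seeing the data, and no comparison was made.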
